A study of Mus musculus with 15 samples.

Results

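The Slco3a1 locus was taken as the stretch from 81400000 to 81750000 on chromosome 7 of mouse genome build mm9, a length of 350 kb. It holds 61 of the 104855 accessible regions of the series, and 382 of the 1041543 peaks that make up those regions. The stretch was chosen by the presence of called peaks, because many of its regions carried one only after lipopolysaccharide. Its differences between treated and untreated cells are therefore given as a description, with no test and no p-value. Positions are as the lists give them, counted from 1, and no gene annotation of build mm9 was used, so the exon or intron behind a region is not given and the name of the locus was not checked against an annotation. In the RefSeq gene table of assembly GRCm38.p6, Slco3a1 (gene ID 108116, with 2 listed transcripts) has the pseudogene Gm51466 and the long noncoding RNA Gm39037 as its nearest neighbours. St8sia2 and Sv2b are the nearest protein-coding genes on either side.

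Slco3a1 encodes a membrane transporter of the organic anion transporting polypeptide family, which moves compounds such as prostaglandins across cell membranes. Lipopolysaccharide (LPS), a component of the bacterial cell wall, is sensed by macrophages through the receptor TLR4, which activates transcription factors of the NF-kB, AP-1 and interferon regulatory factor families. ATAC-seq reads out which DNA a transposase can reach, so that a called peak marks a stretch of open chromatin, typically a promoter or an enhancer. A peak in or near a gene does not by itself say which gene it acts on.

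The cells were bone marrow-derived macrophages of C57BL/6 mice, grown in medium conditioned by L929 cells and used on day 7 of differentiation. They were left untreated or given 10 ng/ml LPS, with harvests after 30 min, 1 h, 2 h and 4 h. Every one of these 5 groups comprised 3 libraries with 1 peak list apiece, and nothing in the labels says that the 3 came from separate mice or cultures. Macrophage marker genes could not be looked up without an annotation of this build. The lists held 52447 to 82222 peaks outside the mitochondrial genome and covered 84 to 129.4 Mb. At every LPS time the list of replicate 3 was the shortest. The number of reads behind a list is unknown, so the absence of a peak means no more than that the caller reported none. Longer lists hold more weak peaks.

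More peaks were called in the locus after 2 h and 4 h of LPS than in untreated macrophages. The untreated libraries had 7, 11 and 11 peaks in the locus. At 30 min there were 14, 15 and 9 peaks, and at 1 h there were 20, 22 and 13. At 2 h there were 39, 39 and 33 peaks, and at 4 h there were 62, 50 and 37. Each library at 2 h and at 4 h lay above each library of the 3 other groups, while the 30 min libraries overlapped the untreated ones and the 2 h libraries overlapped those at 4 h. Untreated libraries averaged 9.67 ± 2.31 peaks, those of 30 min 12.7 ± 3.21, those of 1 h 18.3 ± 4.73, those of 2 h 37.0 ± 3.46 and those of 4 h 49.7 ± 12.5 (SD, n = 3 each). The ratio to the untreated mean was 1.31 after 30 min, 1.90 after 1 h, 3.83 after 2 h and 5.14 after 4 h. Among libraries with the same replicate number the order of the times held for replicates 1 and 2, whereas replicate 3 had 9 peaks at 30 min and 11 untreated.

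**Figure D1:**
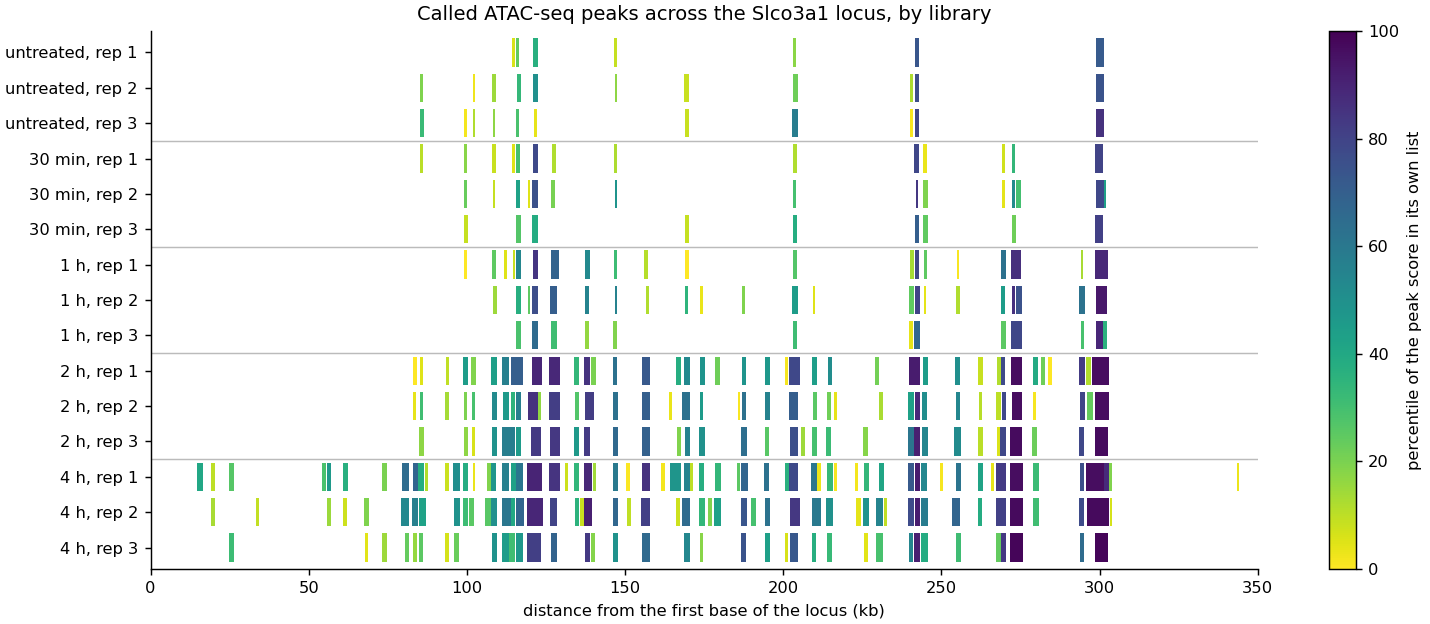
Called peaks of the Slco3a1 locus in each of the 15 libraries, drawn to scale along the distance in kb from the first base of the locus and coloured by the percentile of the peak's score in its own list. The untreated rows hold 7 to 11 peaks, the 2 h rows 33 to 39 and the 4 h rows 37 to 62, and the peaks nearest the left edge are found in 4 h rows only.

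The length of the locus covered by peaks followed the same course. It was 8.41, 14.2 and 13.4 kb in untreated libraries, 18.8, 17.6 and 14.1 kb at 30 min and 29.6, 30.0 and 21.8 kb at 1 h. It was 73.3, 64.7 and 64.1 kb at 2 h and 109.9, 104.2 and 67.7 kb at 4 h. Peaks thus took up 26.8% ± 6.55 of the locus in 4 h libraries, against 3.43% ± 0.901 in untreated ones (SD, n = 3 each). The 1 h libraries did not overlap any earlier library in this measure. The ratio of covered length to the untreated mean was 1.401 after 30 min, 2.26 after 1 h, 5.61 after 2 h and 7.82 after 4 h.

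The whole lists differed less. They held 1.17 times as many peaks at 2 h as untreated, the highest ratio of the 4 times, and 1.08 times as many at 4 h. As a share of the list, the ratio of locus peaks to untreated was 3.27 at 2 h and 4.74 at 4 h. With every list cut by score to the 52447 strongest peaks, the untreated libraries kept 5, 4 and 6 peaks in the locus. The 30 min libraries kept 5, 7 and 9, and the 1 h libraries 10, 13 and 13. The 2 h libraries kept 25, 21 and 25, and the 4 h libraries 36, 36 and 35. Under equal length the spread between the 4 h libraries was thus 1 peak, and all of them lay above all 2 h libraries. Their covered length was then 78.3, 85.4 and 65.1 kb, so that replicate 3 remained the lowest in that measure.

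Each library can also be read against itself, by ranking the locus among 37290 other windows of the same length placed every 50 kb along the genome. In untreated libraries 43.0%, 48.3% and 54.4% of the other windows held fewer peaks than the locus, so that its peak number was near the middle of the windows. At 30 min the shares were 57.2%, 57.2% and 53.3%, and at 1 h 70.8%, 70.8% and 66.7%. At 2 h they were 94.4%, 93.4% and 93.0%, and at 4 h 99.96%, 99.6% and 98.5%. The groups at 1 h, 2 h and 4 h did not overlap each other or the earlier groups in this rank. In 4 h replicate 1, 14 of the other windows held as many peaks as the locus or more.

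**Figure D2:**
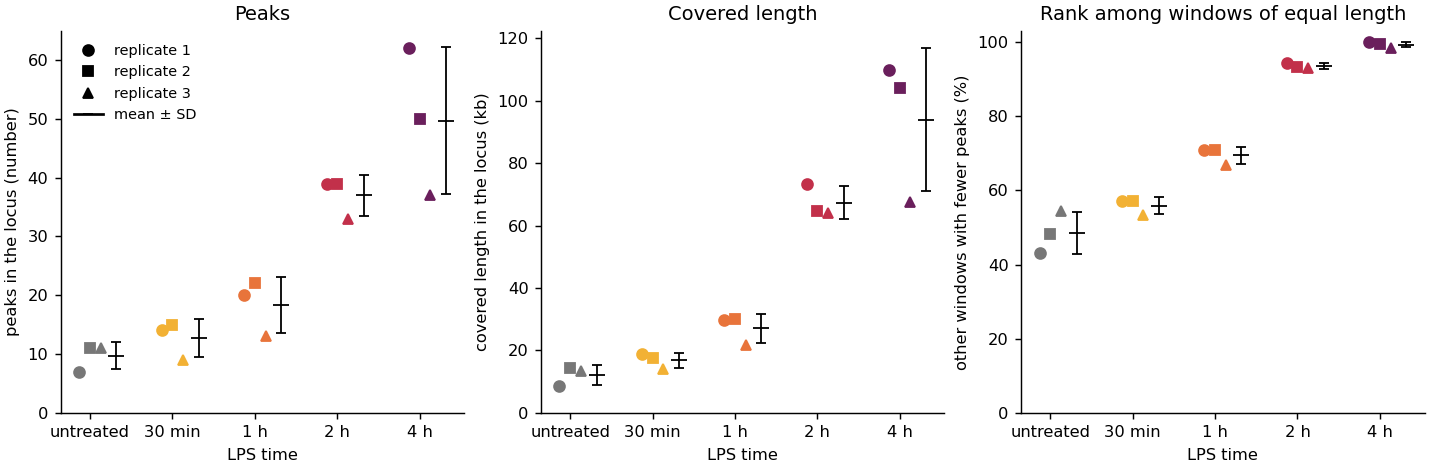
Number of peaks in the Slco3a1 locus, covered length in kb, and percentage of 37290 other windows of equal length with fewer peaks, for each library by LPS time, with the mean and SD of the 3 libraries beside them. In the right panel the 4 h libraries sit between 98.5% and 99.96%, against 43.0% to 54.4% in the untreated libraries.

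Regions were formed by merging the peaks of all lists that overlap, and are numbered here from 1 to 61 in order of position. Peaks that do not overlap each other can thus share a region through a peak of another library. Their median width was 1726 bp, against 1647 bp over all regions, and neighbouring regions lay a median of 1752.5 bp apart, against 5032 bp over all regions. In 5 regions (8.2%) a peak was called in all 15 libraries, a class that holds 33.2% of all regions of the genome. A further 6 regions had a peak in 1 or 2 of the 3 untreated libraries. The other 50 regions (82.0%) had no peak in an untreated library, against 30.4% of all regions. Because the locus was chosen for such regions, these shares describe the choice.

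A region counted as gained after a given time when it had a peak in 3 of 3 LPS libraries and in 0 of 3 untreated libraries, and lost in the reverse case. After 30 min 2 of the 61 regions were gained, where 0.75% of all regions were. After 1 h there were 5, with 1.67% of all regions called. After 2 h there were 17, with 5.03% of all regions called, and after 4 h 18, with 2.79% called. In all, 22 regions of the locus were gained at 1 or more times, beside 6.19% of all regions. No region was lost at any time. Only a region with a peak in 3 of 3 untreated libraries could be called lost. In the locus these were 5 regions (8.2%), against 44.4% of all regions, so the absence of lost regions says little. Of all regions, 0.277% were lost after 30 min, 1.2% after 1 h, 0.817% after 2 h and 1.07% after 4 h, and 1.98% at 1 or more times. The 4 comparisons share the same 3 untreated libraries.

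The early counts depended on weak or narrow peaks. With a score of 100 or more required they were 0 at 30 min and 2 at 1 h, and with 50% of a region to be covered they were 1 and 1. Single libraries also set some of the counts. Without replicate 3 of the time in question, the gained regions numbered 4 at 30 min, 8 at 1 h and 29 at 4 h. Without untreated replicate 1, which had 7 peaks in the locus, 1 region counted as lost at 30 min (region 16) and 2 at 1 h (regions 12 and 16). Both of these were open in untreated replicates 2 and 3 and again in all 2 h libraries.

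The 5 regions open in all libraries had a greater covered length at 2 h and 4 h, and 2 of them were the strongest peaks of the resting locus. Region 59 (81695755 to 81702901) covered 2370, 2515 and 2463 bp in untreated libraries and 2386, 3178 and 2466 bp at 30 min. It covered 3944, 3536 and 3609 bp at 1 h, 6587, 6154 and 4266 bp at 2 h and 7048, 6992 and 4376 bp at 4 h. All libraries from 1 h on lay above all earlier ones, and within both later groups replicate 3 was the lowest. The covered stretch was longer on both sides. Its upper end lay at 81702785 to 81702901 at 4 h, against 81701276 to 81701335 in untreated libraries. On the lower side, replicates 1 and 2 had peaks from 81695860 and 81696154 at 2 h and from 81695755 and 81695910 at 4 h, against 81698821 to 81698907 in untreated libraries. Replicate 3 did not show that lower extension and began at 81698528 at 2 h and at 81698410 at 4 h.

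The score, a value deposited with each peak and used here to rank peaks within 1 list, placed region 59 at percentiles 71.7, 74.4 and 85.7 of the untreated lists. At 2 h and 4 h it reached 3100, a score shared by many of the strongest peaks of a list, which put it at percentiles 96.6, 96.6 and 97.1 at 2 h and 96.9, 97.4 and 98.5 at 4 h. It lay among the strongest peaks of each later list.

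Region 47 (81639311 to 81643209) was the other strong region of resting cells, at percentiles 73.3, 76.4 and 79.0 of the untreated lists. Its covered length was 1306, 2343 and 2208 bp untreated and 1596, 867 and 1510 bp at 30 min. It was 2584, 2733 and 2973 bp at 1 h, 3600, 3367 and 3570 bp at 2 h and 3589, 3554 and 3154 bp at 4 h. The 30 min libraries overlapped the untreated ones with a mean 0.678 times theirs, and all later libraries lay above both groups. In 10 of the 15 lists the region was made of 2 separate peaks, as in untreated replicates 2 and 3 and in all 1 h and 4 h libraries.

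Region 18 (81510993 to 81518160) was a weak region of resting cells, at percentiles 24.4, 33.5 and 28.6 of the untreated lists. It covered 1746, 1223 and 1132 bp untreated, 2535, 1191 and 1653 bp at 30 min and 3298, 1485 and 1491 bp at 1 h. It covered 5788, 4852 and 5708 bp at 2 h and 6018, 6953 and 6357 bp at 4 h, in 2 or 3 separate peaks. The mean length was 6443 ± 473 bp at 4 h, against 1367 ± 331 bp untreated (SD, n = 3 each), a ratio of 4.71. Its score percentile was 57.1 to 70.2 at 2 h and 46.6 to 67.9 at 4 h, above all untreated values.

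Region 19 (81519020 to 81523997), which begins less than a kilobase above region 18, had a higher score percentile at 30 min than untreated in each replicate number. It stood at percentiles 37.1, 50.1 and 3.65 of the untreated lists, at 77.9, 75.1 and 38.6 at 30 min and at 84.7, 76.4 and 65.2 at 1 h. Covered length was 4614, 4964 and 4550 bp at 4 h, against 1414, 1647 and 1039 bp untreated. Region 38 (81601932 to 81605404) was longer only at later times. It covered 854, 1453 and 1707 bp untreated, and its libraries at 30 min and 1 h, at 1121 to 1889 bp, overlapped the untreated ones. At 2 h it covered 3448, 2723 and 2649 bp and at 4 h 2749, 3129 and 2640 bp, above all earlier libraries.

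**Figure D3:**
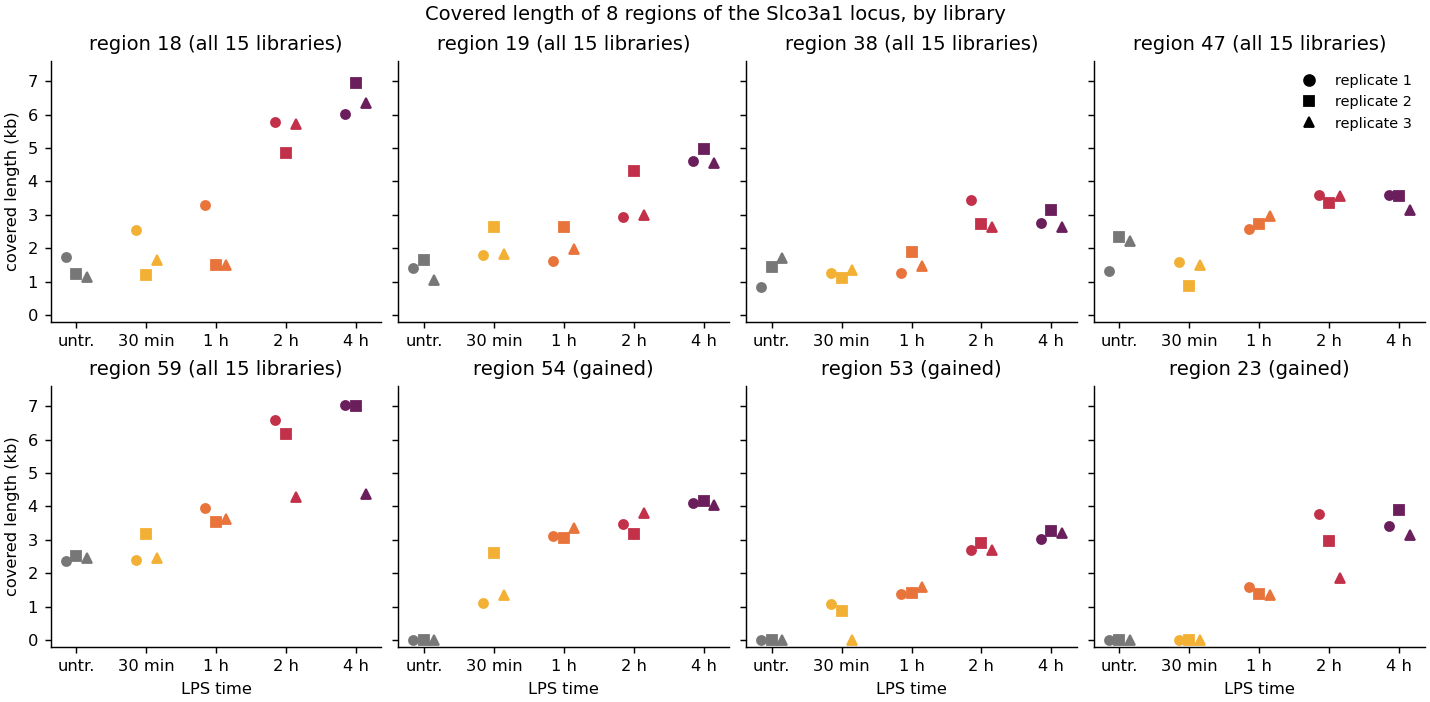
Covered length in kb of the 5 regions with a peak in all 15 libraries and of 3 gained regions, for each library by LPS time, where 0 means that no peak was called and untr. stands for untreated. All 4 h points of region 18 lie above all of its untreated points, with means of 6443 and 1367 bp, and region 54 has points above 0 in every LPS library and in no untreated one.

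Region 54 (81671686 to 81675861) was the one region of the locus gained at all 4 times, where 0.293% of all regions were. From 1 h on it was the strongest of the 22 gained regions in every list. No untreated library had a peak there. At 30 min its scores were 144.6, 283.73 and 92.64, which are percentiles 33.7, 52.3 and 21.9 of those lists. At 1 h they were 1623.84, 1566.77 and 814.41, at percentiles 86.4, 86.1 and 78.8, and all 6 libraries at 2 h and 4 h had the score of 3100. At 2 h the region thus ranked with region 59. It covered 1101, 2598 and 1336 bp at 30 min, 3102, 3059 and 3347 bp at 1 h, 3463, 3172 and 3797 bp at 2 h and 4114, 4148 and 4037 bp at 4 h.

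Region 53 (81667177 to 81670510) lies directly below region 54 and was gained at 1 h, 2 h and 4 h. At 30 min it had weak peaks in replicates 1 and 2, scored 62.14 and 56.74. The 1 h libraries scored 428.52, 205.96 and 93.53, the 2 h libraries 1046.73, 1058.85 and 1036.37 and the 4 h libraries 1322.78, 1115.73 and 1054.06. Its percentile was 25.1 to 62.8 at 1 h and 77.7 to 78.6 at 2 h, with no overlap between those times. Region 58 (81693559 to 81695399), next to region 59, was gained at the same 3 times. It had no peak at 30 min, percentiles of 13.1, 62.5 and 29.2 at 1 h and of 82.7, 79.4 and 78.5 at 2 h, and somewhat lower ones of 76.1, 77.0 and 64.9 at 4 h.

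The remaining regions gained at 1 h lay at the other side of the locus, close to regions 18 and 19. Region 20 (81526027 to 81529527) was seen in 30 min replicates 1 and 2, and from 1 h on no library lacked it. Its covered length was 2584, 2201 and 1642 bp at 1 h, 3501, 3363 and 3274 bp at 2 h and 3438, 2252 and 1905 bp at 4 h. Its percentile was 30.7 to 70.3 at 1 h, 81.9 to 88.9 at 2 h and 68.6 to 84.95 at 4 h, so that 2 h and 4 h overlapped. Region 23 (81535659 to 81540962) had no peak at 30 min. It covered 1575, 1381 and 1346 bp at 1 h, 3759, 2978 and 1844 bp at 2 h and 3402, 3890 and 3151 bp at 4 h.

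Region 48 (81643445 to 81645839), which adjoins region 47, was the other region gained at 30 min. Its scores there were 54.89, 89.59 and 99.69, all under 100, the stricter minimum used as an alternative. Replicates 1 and 2 had a peak there at 1 h, and all libraries did at 2 h and 4 h, where its percentiles were 44.6 to 54.3 and 38.5 to 58.2. At 30 min and 1 h its percentiles had been 3.18 to 24.8.

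More gained regions were first complete at 2 h than at any other time. Of the 22, 2 were first gained after 30 min, 4 after 1 h, 11 after 2 h and 5 after 4 h. Among the 6487 regions of the genome gained at 1 or more times, these numbers were 786, 1218, 3662 and 821. There too 2 h was the most frequent time, so this order is not particular to the locus. The 17 regions gained at 2 h had been seen before in part. At 1 h 5 of them had a peak in 3 of 3 libraries, 3 in 2 of 3 and 3 in 1 of 3, and the other 6 had none. Region 26 (81555052 to 81557926) shows the intermediate course. It had scores of 68.12 and 70.27 in 1 h replicates 1 and 2, then 770.18, 669.78 and 628.8 at 2 h and 1618.34, 1145.72 and 435.44 at 4 h. Region 50 (81653364 to 81656188) had 51.55 and 69.92 in the same 1 h replicates, 273.59, 317.18 and 282.91 at 2 h and 426.84, 568.4 and 115.15 at 4 h. Both regions were thus present before they were complete.

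For 3 regions the one earlier peak was in 1 h replicate 2. Region 34 (81586532 to 81588945) had a score of 86.66 there, 247.11, 474.04 and 494.81 at 2 h and 579.49, 739.66 and 650.4 at 4 h. Region 40 (81608861 to 81611947) had 57.35 there, 213.18, 109.74 and 122.13 at 2 h and 407.26, 384.56 and 140.3 at 4 h. Region 30 (81573452 to 81575164) had 54.81 there, 246.91, 222.21 and 255.9 at 2 h and 159.91, 142.56 and 79.57 at 4 h. The single 1 h peaks were at percentiles 19.2, 4.94 and 3.14 of their list, in the order given, and scores of different lists are not on a shared scale.

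No library up to 1 h had a peak in the other 6 regions. Region 36 (81594067 to 81595757) had scores of 232.12, 342.33 and 108.81 at 2 h and 452.34, 435.91 and 177.14 at 4 h. Region 41 (81613449 to 81615667) had 281.86, 96.88 and 130.72 at 2 h and 136.62, 255.93 and 120.48 at 4 h. Both had a peak in every library of the later times.

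The peaks in regions gained at 2 h had a median percentile of 48.30, 53.998 and 52.13 in the 2 h lists, so as a group they ranked in the middle of those lists. Their median percentile was 61.7, 62.3 and 64.9 in the 4 h lists, the last of these over the 13 regions with a peak in replicate 3. At 4 h, 13 of the 17 were still gained, beside 2092 of the 5272 regions gained at 2 h over the genome. The other 4 of the 17, regions 22, 28, 51 and 55, had a peak in replicates 1 and 2 and none in replicate 3, the shortest list of that time. Region 22 (81533762 to 81535487) scored 142.45, 114.92 and 223.2 at 2 h, and 142.45 and 151.51 in the first 2 replicates of 4 h. Region 28 (81563976 to 81567779) scored 166.68, 55.43 and 87.5 at 2 h, and 236.14 and 61.99 at 4 h. Its 2 h peaks were not at 1 shared place. That of replicate 2 ended 164.787 kb from the start of the locus. Those of replicates 1 and 3 began at 166.142 and 166.343 kb. A peak of 3583 bp in 4 h replicate 1 joined them into 1 region, which the rule counts as gained at 2 h. Percentiles over both times ran from 27.1 to 46.3 in region 22 and from 3.33 to 47.9 in region 28. Region 51 (81661595 to 81663092) scored 63.85, 68.8 and 67.6 at 2 h, and 188.74 and 165.86 at 4 h. Region 55 (81678685 to 81680808) scored 175.0, 52.16 and 97.07 at 2 h, and 131.73 and 127.52 at 4 h. None of the 17 was without a peak at 4 h.

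**Figure D4:**
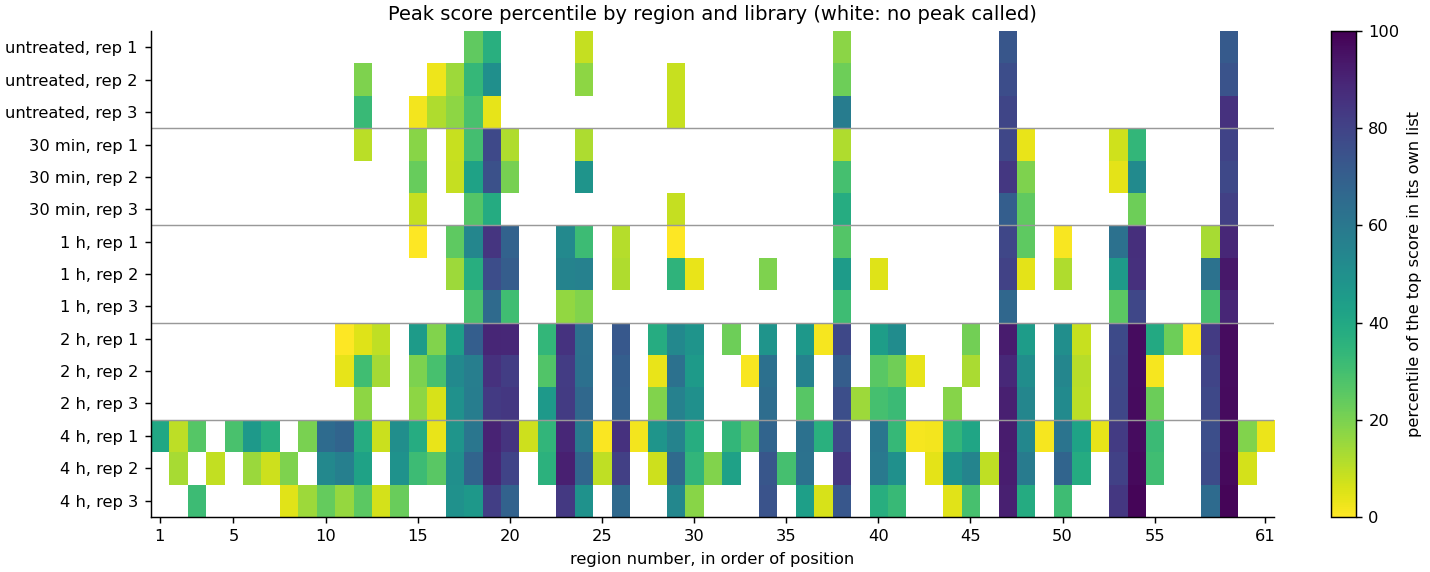
Percentile of the top peak score in its own list for each of the 61 regions (columns, in order of position) in each of the 15 libraries (rows), with white where no peak was called. Regions 47 and 59 are coloured in every row, region 54 from 30 min on, and 22 regions only in rows of the 4 h group.

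Of the 18 regions gained at 4 h, 5 had not been gained at 2 h. These were regions 10, 11 and 14 at the lower end of the locus and regions 44 and 45 in its middle. Over the whole genome the share was similar, with 836 of the 2928 regions gained at 4 h not gained at 2 h. Region 10 (81479327 to 81481822) had no peak in any library up to 2 h and scores of 500.52, 294.02 and 92.56 at 4 h, with 2493, 2383 and 1155 bp covered. Region 14 (81495766 to 81497892) likewise had none up to 2 h and scores of 264.61, 251.04 and 91.12 at 4 h. Region 11 (81482780 to 81484521) had 2 peaks near the threshold at 2 h, scored 50.35 and 56.08, and 572.75, 342.74 and 75.37 at 4 h. In all 3, replicate 3 was the lowest of the 4 h libraries. Region 44 (81625360 to 81627028) had a score of 85.73 in 2 h replicate 3 and of 140.06, 243.98 and 56.02 at 4 h. Region 45 (81628968 to 81631753) had 94.57 and 73.02 in 2 h replicates 1 and 2 and 182.24, 312.78 and 108.7 at 4 h.

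Altogether 22 regions (36.1%) had peaks in 4 h libraries only, a class that holds 4.57% of all regions, while 3 regions (4.92%, with 4.24% of all regions) had peaks in 2 h libraries only. The 22 regions had a peak in 17 cases in replicate 1, in 13 in replicate 2 and in 5 in replicate 3, and the list of replicate 3 was the shortest. Only 2 of them had a peak in all 3 libraries at 4 h, 9 had 2 and 11 had 1. Of their 35 peaks, 24 scored below 100, in lists whose lowest score is 50. Regions 10 and 14 were the exceptions with a peak in 3 of 3.

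The lower end of the locus had peaks only late, an arrangement noticed after the values had been seen. Region 12, which begins at 81484692, is the lowest region with an untreated peak, so the absence of untreated peaks below it follows from that border. No 30 min or 1 h library had a peak below it either. At 2 h, 1 of the 11 regions below it had a peak, and at 4 h all 11 did, from 81414694 on. Except for the 1 seen at 2 h, these are regions only through their 4 h peaks. From the first to the last called peak of a group, the stretch measured 216.3 kb in untreated libraries, 217.1 kb after 30 min, 203.6 kb after 1 h, 219.8 kb after 2 h and 329.4 kb after 4 h. Counting only regions with a peak in 3 of 3 libraries, it measured 223.6 kb at 4 h, against 186.9 kb untreated. At 30 min, 1 h and 2 h it was then 203.2, 190.7 and 217.9 kb, so 4 h was little above 2 h. The farthest part of the 4 h extension thus rests on peaks found in 1 or 2 libraries. At the upper end, region 60 stopped at 81703989 and the next 39446 bp held no peak in any library, up to a single weak peak in region 61 scored 54.88 in 4 h replicate 1.

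The 6 regions with a peak in 1 or 2 untreated libraries were regions 12, 15, 16, 17, 24 and 29. Their untreated peaks scored 52.49 to 137.3. All 6 had a peak in every 2 h library. Region 24 (81546144 to 81547916) had untreated scores of 63.94 and 84.96 in replicates 1 and 2, 465.22, 476.49 and 537.9 at 2 h and 391.39, 543.71 and 215.15 at 4 h. Region 29 (81568031 to 81571599) had untreated scores of 64.76 and 64.31 in replicates 2 and 3, 306.14, 466.59 and 333.3 at 2 h and 319.68, 499.66 and 260.73 at 4 h. Region 16 (81500660 to 81502804) took another course, with peaks in untreated replicates 2 and 3, none in the 6 libraries at 30 min and 1 h, and peaks of 88.06, 123.09 and 59.04 at 2 h. Region 12 was similar, with 1 peak in those 6 libraries. All of these untreated peaks scored low.

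The remaining 28 regions had no untreated peak and were never gained. They had 46 peaks in all, with a median score of 66.5, and 35 of these scored below 100. Of the 28, 8 were first seen at 2 h and 20 at 4 h, and none had a peak at 30 min or 1 h.

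Per library, 4, 4 and 2 of the 50 regions without an untreated peak were open at 30 min and 8, 11 and 5 at 1 h. At 2 h 24, 22 and 19 were open and at 4 h 42, 34 and 23. They covered 59.96 ± 17.4 kb at 4 h, while the 5 regions open in all libraries covered 23.6 ± 2.29 kb at 4 h, against 8.47 ± 0.748 kb in untreated libraries (SD, n = 3 each). The 6 regions with a peak in 1 or 2 untreated libraries covered 10.4 ± 3.67 kb at 4 h, against 3.54 ± 2.45 kb untreated (SD, n = 3 each). Regions with and without an untreated peak thus both contributed to the greater covered length. In the regions open in all libraries, part of the added length was separate peaks at places without an untreated peak. How much of it was broadening of existing peaks was not tested.

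The dense stretch ended at different distances on its 2 sides. The window of the same length below the locus (81049999 to 81399999) held 1 region, with a peak in 1 library at 2 h and 1 at 4 h, and none of its regions was gained. This nearest region on the lower side lay 229.6 kb outside the locus. The window above (81750001 to 82100001) held 18 regions, of which 6 were gained. It had 18, 15 and 13 peaks at 4 h, against 5, 5 and 6 in untreated libraries. The nearest region on that side began at 81763847, 13.8 kb outside the locus, and was gained at 2 h and at 4 h, while region 61 just inside had a peak in 1 library.

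Among windows of equal length, the locus with its 22 gained regions was not the densest of the genome. A stretch on chromosome 10 had more, with 27 in the window from 18600000 to 18950000, and 3 overlapping windows at that place were the only others with 22 or more. The median of the other windows was 1. By regions gained at 4 h the order was the same, with 18 in the locus and 21 on chromosome 10. At 30 min, in contrast, 684 other windows held 2 or more gained regions, as the locus did, and at 1 h 186 held 5 or more.

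**Figure D5:**
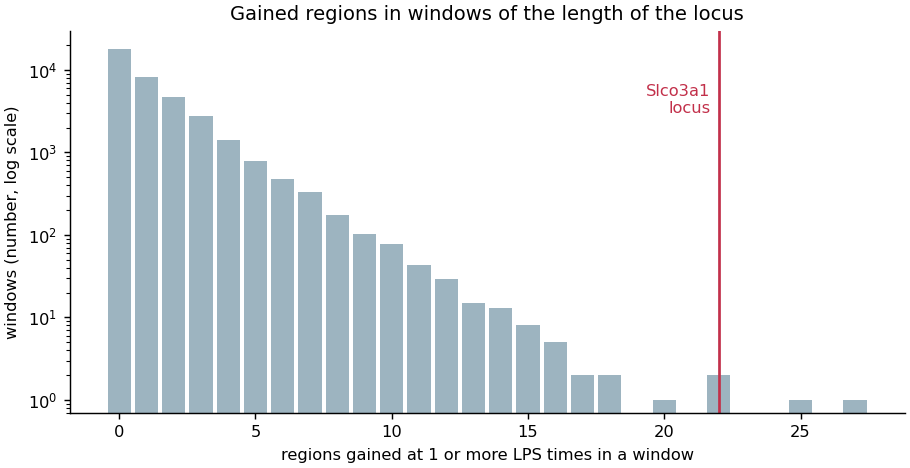
Number of windows (log scale) by the number of regions gained at 1 or more LPS times in them, for 37290 windows of equal length outside the Slco3a1 locus together with the locus itself, marked by the red line at 22. The 3 windows with 22 or more beside the locus overlap each other on chromosome 10.

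The windows whose course over the 15 libraries was most like that of the locus were sought by the covered length in each library as a share of its list. Over 31006 windows with a peak in every library, the 5 highest Pearson correlations were 0.980, 0.979, 0.975, 0.973 and 0.971. They are given as a description, since the libraries of a group share their treatment. These windows lay on chromosome 6 (27950000 to 28300000), chromosome 2 (23800000 to 24150000), chromosome 15 (52700000 to 53050000), chromosome 11 (82700000 to 83050000) and chromosome 2 (156900000 to 157250000). Their gained regions numbered 1, 4, 9, 4 and 9 in that order, all fewer than the 22 of the locus. The first of them covered 26.3 ± 6.82 kb at 4 h, against 11.5 ± 2.63 kb in untreated libraries (SD, n = 3 each). That difference was smaller than the one of the locus.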

How the data were processed

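ATAC-seq peak lists of 15 libraries were used, 1 list per library. The authors' steps are known only from the submitters' processing notes, which name Bowtie 1.1.2, MACS 1.4 and build mm9. For caller settings, duplicate removal, a transposase shift, a control or a blacklist, no statement was found in the labels or lists. The lists do not state what the deposited score of each peak is, and it was used only to rank and filter peaks within a list. It ran from 50 to 3233.06, and 3100 is a frequent tie. A percentile is the rank of a score in its list, with ties at their mean rank.

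Groups and replicate numbers came from the sample titles. Mitochondrial peaks (2 per list) were dropped. Any pair of lists had at most 13 intervals with the same ends, and all were kept as separate libraries. Starts were raised by 1. Regions are the unions of peaks sharing at least 1 bp, formed over all chromosomes. Covered length is the sum of the peaks' widths. Windows of the length of the locus were placed every 50 kb and kept if they held a region. Regions named with values are those gained at any time and the 3 regions open in all libraries with the highest lowest percentile (18, 47 and 59). Regions 12, 15, 16, 17, 19, 24, 29, 38, 60 and 61 were named after their values had been seen.

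The locus and its measures were chosen with earlier results of these data known, so no test was run and no p-value is given. The merging and the gained and lost rule were tested on simulated lists. Their sites lay far apart and were the same in every library of a group. The joining of neighbouring sites and peaks missing in single replicates were therefore not tested. Python 3.11.15, pandas 2.3.3, numpy 2.4.6 and matplotlib 3.10.9 were used. No sequence is printed because no genome of build mm9 was used here. Alternatives were a minimum score of 100, lists of equal length, other rules for presence, merging and the borders of the locus, and leaving out each library.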

Additional observations from a re-analysis of the deposited data

How the results depend on the processing

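Peak lists carry no read counts, so depth limits every absence given here. Peaks wholly inside the locus and a locus narrowed by 25 kb at each end left all counts and ratios close to those reported. With a score of 100 or more, gained regions numbered 0 at 30 min and 2 at 1 h, as many early peaks are weak. The ratio of peak number to untreated was then 2.77 at 1 h, 5.92 at 2 h and 8.23 at 4 h, and that of covered length 2.89, 7.57 and 10.9. With lists of equal length, gained regions numbered 1, 5, 13 and 18 at the 4 times and 18 at any time. The ratios of peak number at 1 h, 2 h and 4 h were then 2.40, 4.73 and 7.13 and those of covered length 2.79, 6.85 and 10.2. As a share of the list the 2 h ratios were 3.27 for peak number and 4.66 for covered length. With 50% of a region to be covered, gained regions numbered 1, 1, 18 and 21 at the 4 times and 23 at any time. With peaks merged within 500 bp they numbered 1, 4, 13 and 15, and 17 at any time. Bins of 500 bp, a smaller unit, gave 4, 18, 71 and 87 gained bins at the 4 times and 97 at any time. Under the relaxed rule of 2 or more of 3 against 0 of 3, gained regions numbered 4 after 30 min, 8 after 1 h and 34 both after 4 h and at any time, and lost ones 1 at 30 min and 2 at 1 h. Leaving out 1 library at a time gave 2 to 4 gained regions at 30 min, 5 to 8 at 1 h and 18 to 29 at 4 h, 0 to 1 lost at 30 min and 0 to 2 lost at 1 h. It gave a 2 h ratio of 3.36 to 4.11 for peak number and of 4.88 to 6.18 for covered length. No paired analysis was possible because the results come from no test, so there was no fit to which a replicate block could be added. Values by replicate number are given with the peak numbers.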
